A study of Homo sapiens with 24 samples.

Results

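The Krüppel-like factors are DNA-binding proteins with zinc fingers at their carboxyl end, and 9 of their genes were followed here: KLF2, KLF3, KLF6, KLF7, KLF9, KLF10, KLF11, KLF13 and KLF16. They were taken as all rows of the count table whose RefSeq accession maps to one of these symbols, which gave 22 accessions of 64519 in the table. The data are RNA-seq read counts per RefSeq accession from Nalm6, a human cell line grown from a B-cell precursor acute lymphoblastic leukemia. A total of 24 libraries made up 8 groups of 3 replicates. Cells carried a nonspecific shRNA (shNS) or an shRNA against G9a, against GLP or against HP1γ (shG9a, shGLP, shHP1γ), and each of the 4 populations received 100 nM dexamethasone (dex, a synthetic glucocorticoid) or the ethanol vehicle for 8 h. The shRNAs came from lentiviral vectors and the cells were puromycin-selected populations, so all groups, controls included, carry an integrated vector, and the shRNA names state the protein aimed at and not how far it was lowered. Per the labels, the 3 replicates of a condition were made on different days. G9a and GLP are lysine methyltransferases, HP1γ binds methylated lysine, and the study asked how these coregulators of the glucocorticoid receptor bear on its target genes.

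Family members share a binding preference for GC-rich and CACCC sequences, and they differ outside the zinc fingers in the cofactors they recruit. KLF2 holds lymphocytes in quiescence and directs their trafficking, and in endothelium it answers to shear stress through MEF2 factors. KLF9 is a long-known target of the glucocorticoid receptor in many tissues. KLF9, KLF10, KLF11, KLF13 and KLF16 can recruit the SIN3 corepressor, KLF10 and KLF11 were first described as genes induced by TGF-beta, and KLF3 recruits the CtBP corepressors.

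KLF2, KLF9 and KLF13 rose with dex in all 4 populations, KLF2 by far the most. In shNS cells KLF2 rose 13.8-fold, KLF9 2.16-fold and KLF13 2.18-fold, while KLF3 and KLF16 were lower by small amounts. In dex, the G9a-depleted cells held 35.4% of the KLF2 level and 68.0% of the KLF13 level of shNS cells. Without hormone they held 39.1% of the KLF2 level, which was not called, and 94.15% of the KLF13 level. Their KLF2 still rose 12.5-fold with dex, and this response did not differ from shNS past the test. The GLP-depleted cells held 44.7% of the KLF2 level in dex, a call lost under 9 of 18 alternatives. The KLF2 result for HP1γ turned on 1 replicate.

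Of the 22 accessions, 7 passed a filter of more than 1 CPM (the count scaled by the library total) in at least 2 libraries and were tested, 1 for each of KLF2 (NM_016270), KLF3 (NM_016531), KLF7 (NM_003709), KLF9 (NM_001206), KLF10 (NM_005655), KLF13 (NM_015995) and KLF16 (NM_031918). Over all genes, 10167 accessions of 9391 genes passed. All 4 accessions of KLF6 and all 3 of KLF11 were listed at 0 counts in all 24 libraries, as were 3 of the 4 accessions of KLF10. The 4 minor accessions of KLF7 had at most 7 counts in any library, and the second accession of KLF13 (NM_001302461) had at most 2. A 0 here does not show that a gene was silent. The members with high counts have 1 or 2 accessions in the table, and the 4 members with 3 or more had at most 19 counts on any accession. Over all genes, all accessions were at 0 for 26.3% of those with 1 accession. This share was 34.1% for genes with 3 to 5 accessions and 32.2% for those with 6 or more. The share of genes with a tested accession fell from 39.2% with 1 accession to 31.5% with 2 and 25.5% with 3 to 5. It was lowest for genes with 6 or more. Low counts also occurred among genes that every cell uses, for which the examples here were chosen after their values were seen. ACTB, with 1 accession, had 88109 to 139178 counts per library. GAPDH, the glycolytic enzyme, has 4 accessions that summed to 24 to 63 counts, HSP90AB1, a chaperone, has 5 that summed to 0 to 6, and LDHA has 6 that summed to 3 to 13. TSC22D3 and FKBP5, with 5 and 4 accessions, reached 1260 and 419 counts on an accession. How reads that match several accessions of a gene were counted is not given in the sources used here, and its part in the levels of KLF6, KLF7, KLF10 and KLF11 was not tested.

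On GRCh37 the 5 members with ample counts lie apart from one another, apart from a pair on chromosome 19. KLF2 is at chr19:16435637-16439496 and KLF16 at chr19:1852398-1863578 on the opposite strand. KLF13 is at chr15:31619038-31727868, KLF9 at chr9:72999520-73029573 and KLF3 at chr4:38665818-38703138. KLF3 overlaps the antisense gene KLF3-AS1 over 730 bases, KLF16 overlaps 2 lncRNA genes on the other strand, and KLF13 holds the processed pseudogene UBE2CP4 of 535 bases. Whether the counting used the strand is not given in the sources used here. Reads of the opposite-strand partners therefore cannot be told apart from reads of KLF3 and KLF16. UBE2CP4 lies on the same strand as KLF13, where the strand would not separate reads.

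The 250 bases ahead of the RefSeq start are shown for the 3 dex-induced members and for KLF16, one of the 2 that were lower, to set members of both directions side by side. Sequences are from RefSeq on GRCh38.p14, and each was found once, without mismatch, at the GRCh37 position given. Capitals mark matches, on both strands, to the GC box GGGCGG, the CACCC box, the MEF2-type element (CTA and TAG with 4 bases between) and the receptor palindrome (GNACA and TGTNC with 3 bases between), and matches can share bases.
KLF2, chr19:16435387-16435636, plus strand: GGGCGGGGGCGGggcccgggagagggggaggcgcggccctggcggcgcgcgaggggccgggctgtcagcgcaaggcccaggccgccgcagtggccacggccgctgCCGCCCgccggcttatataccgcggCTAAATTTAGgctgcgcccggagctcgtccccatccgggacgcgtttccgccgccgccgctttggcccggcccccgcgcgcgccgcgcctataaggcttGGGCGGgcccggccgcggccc
KLF9, chr9:73029574-73029823, minus strand: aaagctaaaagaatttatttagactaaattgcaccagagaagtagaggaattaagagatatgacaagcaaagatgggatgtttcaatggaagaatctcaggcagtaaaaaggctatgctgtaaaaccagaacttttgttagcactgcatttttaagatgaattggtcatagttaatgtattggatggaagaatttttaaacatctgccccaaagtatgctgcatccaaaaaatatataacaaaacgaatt
KLF13, chr15:31618788-31619037, plus strand: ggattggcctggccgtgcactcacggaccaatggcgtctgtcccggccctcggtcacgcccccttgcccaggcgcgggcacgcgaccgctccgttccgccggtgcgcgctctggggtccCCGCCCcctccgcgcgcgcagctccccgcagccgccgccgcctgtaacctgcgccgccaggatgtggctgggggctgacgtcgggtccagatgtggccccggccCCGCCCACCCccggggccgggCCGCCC
KLF16, chr19:1863579-1863828, minus strand: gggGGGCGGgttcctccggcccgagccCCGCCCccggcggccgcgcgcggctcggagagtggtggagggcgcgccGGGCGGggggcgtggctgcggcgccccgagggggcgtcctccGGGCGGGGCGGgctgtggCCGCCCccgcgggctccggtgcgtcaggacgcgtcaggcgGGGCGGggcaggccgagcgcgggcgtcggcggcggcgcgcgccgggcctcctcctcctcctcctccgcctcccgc
The KLF2 window held 4 GC boxes and 1 MEF2-type element, at 80.0% G and C. The KLF13 window held 3 GC boxes, the second of which shared bases with a CACCC box, and KLF16 held 7. The KLF9 window, at 32.4% G and C, held none of the 4 motifs. Among 35116 such windows in the RefSeq table, 42.6% held a GC box, 54.7% a CACCC box, 2.36% a MEF2-type element and 0.327% the receptor palindrome. KLF3 and KLF10 are not in the promoter table.

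The receptor palindrome was also sought within 10000 bases on either side of the start of the canonical transcript, where 22.7% of 19881 protein-coding genes held at least 1. KLF9 held 1, at chr9:73035038-73035058 and 5475 bases ahead of its start, and KLF3 held 1, at chr4:38663757-38663777 and 2053 bases ahead of its start within KLF3-AS1.
KLF9 site, minus strand: aaaaGGACAAACTGTTCcaca
KLF3 site, plus strand: caccGAACACAGTGTTCacta
KLF6 and KLF10 also held 1 each, and KLF2, KLF7, KLF11, KLF13 and KLF16 held none in this window. KLF9 rose with dex and KLF3 was lower with dex, so the members with a match did not share a direction. A match is a description of the letters and not a measured binding site.

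Library totals ran from 9289533 to 14387770 counts, with a median of 11132064.5. Levels are given as normalized CPM, which are counts scaled to a common library total by the upper quartile. Tests were edgeR quasi-likelihood tests over all 10167 accessions with the replicate number as a block, and a call is an adjusted p of at most 0.05. Both shHP1γ libraries of replicate 1 stood apart. Of 5605 well-counted transcripts, 84 in its ethanol library and 90 in its dex library lay at least 2-fold from the mean of the other replicates, and the deviations of the 2 libraries had a correlation of 0.823 across transcripts. The dex library of shG9a replicate 2 had 155 such transcripts, 147 of them lower, and the other 21 libraries had 2 to 45. Member results that rest on the shHP1γ libraries are therefore given with and without that pair. The dex library of shG9a replicate 2 was kept in the main fit, and its removal was among the alternative fits. KLF2 and KLF13 stayed called lower than shNS in shG9a cells in dex without it. Among the 5605 transcripts, KLF2 itself had rank 12 from the highest deviation in the ethanol library of the pair and rank 5 in its dex library. In that dex library KLF3 was 1.56 times and KLF13 0.694 times the mean of its partners. The choice of that pair, made after the data were seen, is thus not independent of the values of KLF2, KLF3 and KLF13. Comparisons among shNS, shG9a and shGLP cells hold neither library, so calls gained there without the pair are not independent support. EHMT2, which encodes G9a, is not analysed here. EHMT1, which encodes GLP, had 4.08 ± 0.46 normalized CPM in shNS and 2.62 ± 0.84 in shGLP cells in ethanol (SD, n = 3; adjusted p = 0.092), and one accession of CBX3, which encodes HP1γ (NM_016587), had 4.02 ± 0.39 in shNS and 2.86 ± 0.50 in shHP1γ cells (adjusted p = 0.277), and the other (NM_007276) had an adjusted p of 0.644, so at these low counts no targeted transcript passed the test. The paper itself reports efficient depletion of G9a, GLP and HP1γ in the cells sequenced, as protein by immunoblot and as mRNA by RT-qPCR. Of the B-cell precursor markers, RAG1, IGLL1 and CD79A were well counted, CD79B and DNTT were at 0, and PAX5, EBF1 and VPREB1 had at most 7 counts. The absent and near-absent ones have 2 or more accessions. The T-cell and erythroid markers summed to at most 0.271 and 0.308 CPM, and CD14 and CSF1R had at most 4 and 0 counts. LYZ, a myeloid gene, was at 19.4 to 31.2 CPM in the 6 shGLP libraries and 1.61 to 10.5 in the 18 others, and its part in the shGLP results was not tested.

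**Figure D1:**
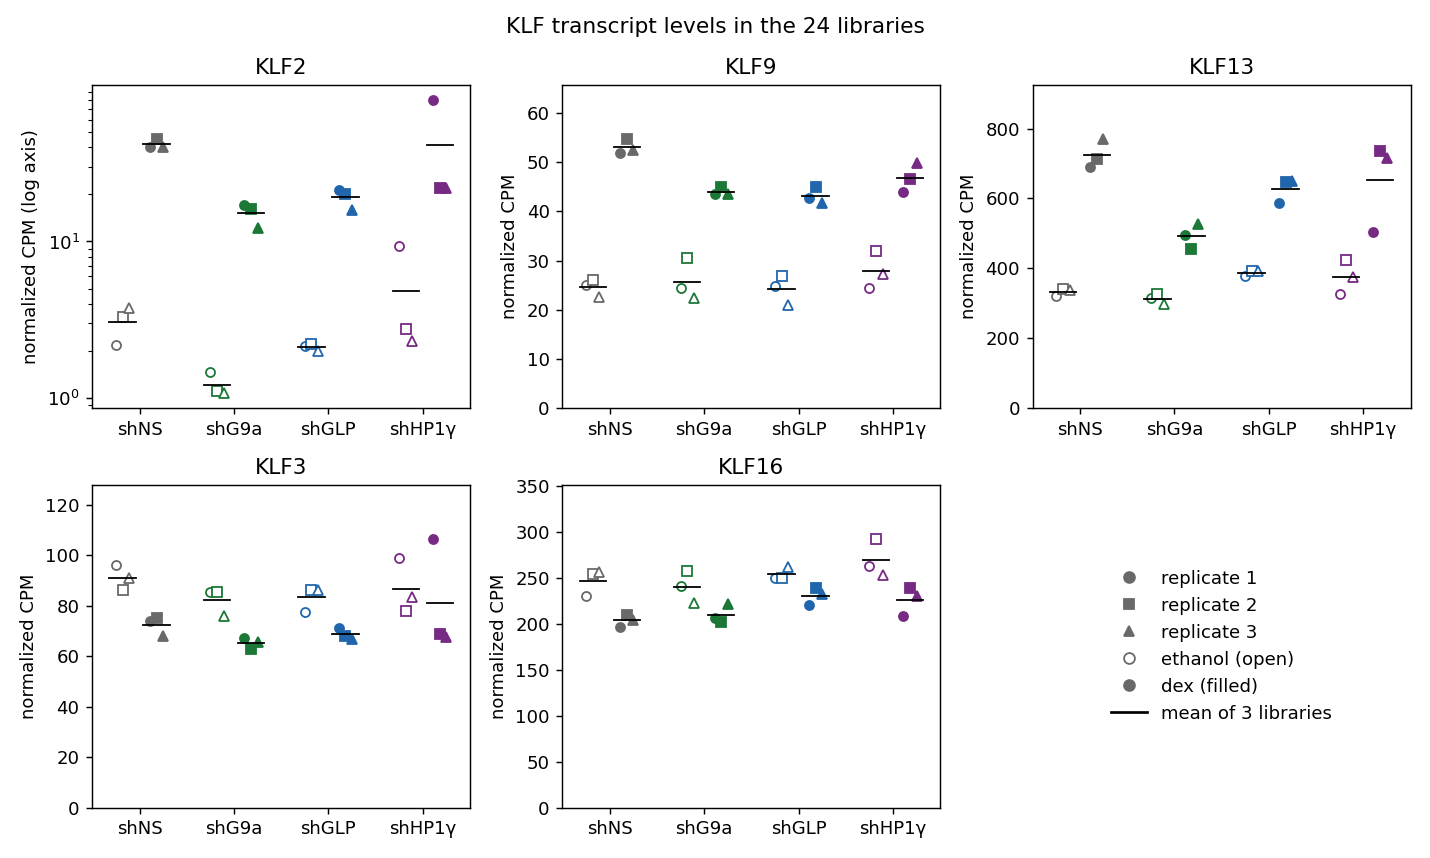
Normalized CPM (vertical axis, logarithmic for KLF2 and starting at 0 for the other genes) of the 5 well-counted KLF transcripts in each of the 24 libraries, by cell population, with open symbols for ethanol, filled symbols for dex, a symbol shape for each replicate and a line at the mean of 3 libraries. The 3 dex libraries lie above the 3 ethanol libraries of their own population for KLF2, KLF9 and KLF13, and replicate 1 of shHP1γ lies far above its partners for KLF2, at 9.35 in ethanol and 80.5 in dex.

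KLF2, the quiescence factor, was scarce without hormone. In ethanol, shNS cells had 2.17, 3.31 and 3.74 normalized CPM in replicates 1, 2 and 3, and in dex they had 40.1, 45.0 and 40.2. The shG9a cells had 1.46, 1.12 and 1.07 in ethanol and 17.1, 16.1 and 12.2 in dex. The shGLP cells had 2.15, 2.21 and 1.99 in ethanol and 21.4, 20.1 and 15.8 in dex. Every dex library of these populations was above every ethanol library, and in dex the shNS libraries did not overlap those of shG9a or shGLP. The shHP1γ cells had 9.35, 2.77 and 2.31 in ethanol and 80.5, 22.0 and 21.8 in dex. Replicate 1 of shHP1γ was thus 3.67 times the mean of its partners in ethanol and 3.67 times in dex, while the other shHP1γ dex libraries lay above the highest shGLP library and below every shNS library. Raw counts behind these values ran from 13 to 910. In bulk RNA, fewer cells expressing a gene and less RNA per cell cannot be told apart.

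The log2 fold change of KLF2 with dex was 3.78 (SE 0.37, adjusted p = 1.23e-07) in shNS, 3.64 (SE 0.47) in shG9a, 3.17 (SE 0.42) in shGLP and 3.06 (SE 0.36) in shHP1γ, with adjusted p of at most 2.43e-05 in the depleted cells. Within replicates, dex over ethanol was 18.5, 13.6 and 10.8 in shNS and 11.7, 14.4 and 11.4 in shG9a, which overlap. It was 9.92, 9.10 and 7.98 in shGLP and 8.61, 7.95 and 9.43 in shHP1γ, all below the lowest ratio of shNS. Replicate 1 of shHP1γ, so different in level, had a ratio between those of its partners. The difference in log2 dex response from shNS was -0.14 (SE 0.73) for shG9a, -0.61 (SE 0.63) for shGLP and -0.73 (SE 0.55) for shHP1γ, none of them past the test. In shHP1γ without the replicate 1 pair, the dex response of KLF2 was 3.10 (SE 0.20) and its difference from shNS -0.66 (SE 0.28).

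In dex, KLF2 was lower than in shNS by a log2 difference of -1.50 in shG9a (SE 0.30, adjusted p = 0.00253) and of -1.16 in shGLP (SE 0.30, adjusted p = 0.0189), and was lower in 3 of 3 replicates of each. The shGLP call was lost under 9 of 18 alternatives, with an adjusted p of 0.139 without the replicate block and of 0.0715 to 0.125 without the dex library of shGLP replicate 1 or 3 or of shNS replicate 2 or 3. The shG9a call was lost under 1, with an adjusted p of 0.114 without all libraries of replicate 3. For shHP1γ the difference was -0.19 (SE 0.29, adjusted p = 0.842), with 1 of 3 replicates higher. Without both shHP1γ libraries of replicate 1 it was -0.91 (SE 0.13, adjusted p = 7.805e-05), or 53.2% of the shNS level, and the standard errors of the other differences fell too, to 0.12 for shG9a and for shGLP. In ethanol the differences from shNS were -1.35 (SE 0.59, adjusted p = 0.260) in shG9a, -0.55 (SE 0.54) in shGLP and 0.54 (SE 0.47) in shHP1γ. Without that pair of libraries the ethanol difference of shG9a was -1.34 (SE 0.25, adjusted p = 0.00120) and that of shHP1γ was -0.25 (SE 0.24).

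**Figure D2:**
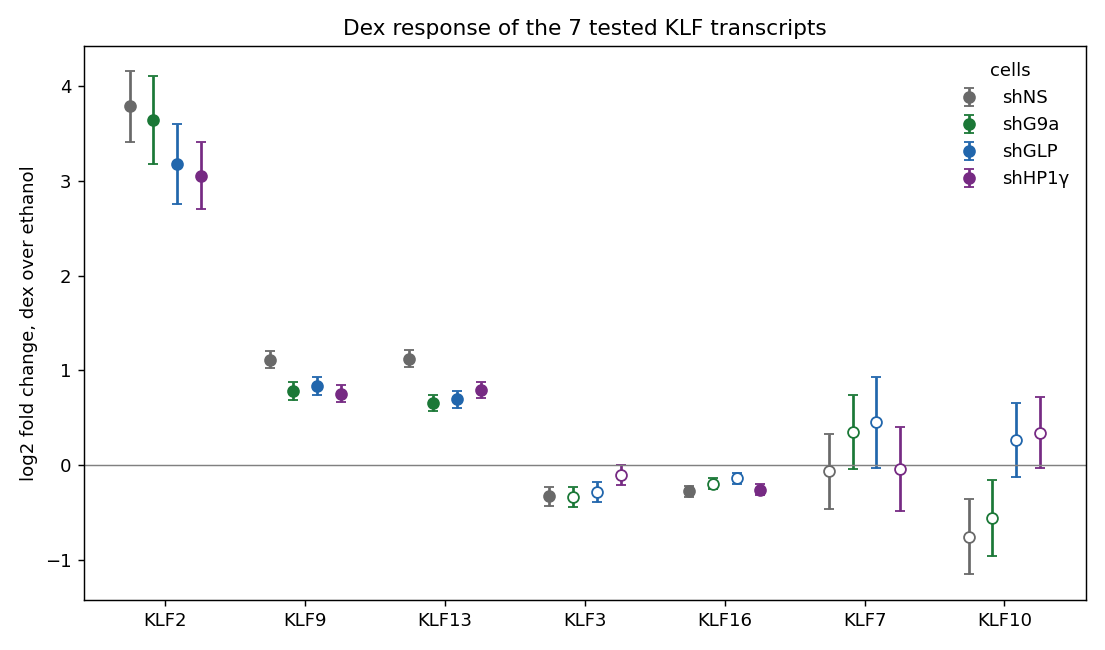
Log2 fold change of dex over ethanol (vertical axis) for the 7 tested KLF transcripts in each population, with bars of 1 standard error and filled symbols for an adjusted p of at most 0.05. KLF2 lies between 3.06 and 3.78, KLF9 and KLF13 lie between 0.65 and 1.12 with shNS highest, KLF3 and KLF16 lie just below 0, and the wide bars of KLF7 and KLF10 cross 0 or come near it.

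KLF9, a repressor and a classic receptor target, was measured tightly. In ethanol it had 25.1, 26.0 and 22.6 normalized CPM in shNS, 24.4, 30.4 and 22.3 in shG9a, 24.8, 26.9 and 20.9 in shGLP, and 24.3, 31.9 and 27.2 in shHP1γ. The ethanol groups overlapped throughout. In dex it had 51.9, 54.8 and 52.5 in shNS, 43.5, 45.0 and 43.5 in shG9a, 42.7, 44.9 and 41.7 in shGLP, and 44.0, 46.6 and 49.8 in shHP1γ. All 9 dex libraries of depleted cells were below all 3 of shNS. The same 3 shNS libraries serve each comparison, and the share of all transcripts so separated is not given here. The log2 fold change with dex was 1.11 (SE 0.09, adjusted p = 5.02e-09) in shNS, 0.78 (SE 0.09) in shG9a, 0.83 (SE 0.09) in shGLP and 0.75 (SE 0.09) in shHP1γ, with adjusted p of at most 6.14e-06 in the depleted cells. In shHP1γ it was 0.70 (SE 0.10, adjusted p = 8.78e-05) without the pair of replicate 1 libraries.

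In dex, the log2 difference of KLF9 from shNS was -0.27 in shG9a (SE 0.09, adjusted p = 0.0537), -0.30 in shGLP (SE 0.09, adjusted p = 0.0435) and -0.18 in shHP1γ (SE 0.09, adjusted p = 0.313). The shGLP call was lost under 12 of 18 alternatives, including the removal of any one of the 6 libraries compared, which gave adjusted p from 0.0708 to 0.169, and the fit without the replicate block, which gave 0.204. With both shHP1γ libraries of replicate 1 left out, KLF9 was called in shG9a (-0.27, adjusted p = 0.0268) and in shGLP (-0.30, adjusted p = 0.0168), while shHP1γ was at -0.14 (adjusted p = 0.465). In ethanol KLF9 in shHP1γ was at 0.18 (adjusted p = 0.409) with the pair and 0.27 (adjusted p = 0.165) without it. The difference in log2 dex response from shNS was -0.33 for shG9a (unadjusted p = 0.0169), -0.28 for shGLP (0.0435) and -0.36 for shHP1γ (0.0101), and none passed after adjustment over all transcripts (adjusted p of 0.644 to 1). The shHP1γ value was -0.41 (adjusted p = 0.626) without the pair.

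KLF13, a factor first linked to RANTES expression in T cells, was the most abundant member by counts. In ethanol it had 321, 340 and 337 normalized CPM in shNS, 314, 325 and 298 in shG9a, 379, 392 and 392 in shGLP, and 327, 423 and 375 in shHP1γ. The shGLP libraries lay above all shNS libraries. In dex it had 690, 712 and 771 in shNS, 494, 454 and 528 in shG9a, 586, 647 and 650 in shGLP, and 504, 737 and 716 in shHP1γ. Here the shG9a and shGLP libraries lay below all shNS libraries, and replicate 1 of shHP1γ was low while its partners were within the shNS range.

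The log2 fold change of KLF13 with dex was 1.12 (SE 0.09, adjusted p = 2.57e-09) in shNS, 0.65 (SE 0.09) in shG9a, 0.69 (SE 0.09) in shGLP and 0.79 (SE 0.09) in shHP1γ, with adjusted p of at most 2.63e-05 in the depleted cells. The shHP1γ value was 0.86 (SE 0.07) without the replicate 1 pair. In dex the difference from shNS was -0.56 in shG9a (SE 0.09, adjusted p = 0.00019), which held under all 18 alternatives, -0.21 in shGLP (SE 0.09, adjusted p = 0.204) and -0.16 in shHP1γ (SE 0.09, adjusted p = 0.400). The paper lists KLF13 among the dex-regulated genes that depend on G9a, GLP and HP1γ, with a different correction for batch effects. In ethanol the shGLP difference was 0.22 (SE 0.09, adjusted p = 0.228). Without both shHP1γ libraries of replicate 1, the shGLP differences passed, at -0.21 in dex (adjusted p = 0.0168) and 0.22 in ethanol (adjusted p = 0.0216), and shHP1γ was at -0.02 in dex (adjusted p = 0.948) and 0.25 in ethanol (adjusted p = 0.0290).

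Dex over ethanol of KLF13 within replicates was 2.15, 2.10 and 2.29 in shNS, and each of the 9 ratios of depleted cells, from 1.39 to 1.91, was lower. The difference in log2 dex response from shNS was -0.47 for shG9a (SE 0.12, unadjusted p = 0.000941, adjusted p = 0.383), -0.43 for shGLP (SE 0.12, unadjusted p = 0.00206, adjusted p = 0.530) and -0.33 for shHP1γ (SE 0.12, unadjusted p = 0.0137, adjusted p = 1). For the mean of the 3 depleted populations against shNS, a contrast added after the data were seen, it was -0.41 (SE 0.10, adjusted p = 0.146). Without both shHP1γ libraries of replicate 1 the adjusted p became 0.00612 for shG9a, 0.0130 for shGLP and 0.00368 for the mean, with differences of -0.47, -0.43 and -0.39, while shHP1γ was at -0.27 (adjusted p = 0.744). The shG9a and shGLP differences hold no shHP1γ library, and their values stayed while their standard errors fell from 0.12 to 0.08. In the removed dex library KLF13 was 0.694 times the mean of its partners, so the removal was not independent of KLF13. The 3 depletions were compared with the same shNS libraries, so their differences are not independent of one another.

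**Figure D3:**
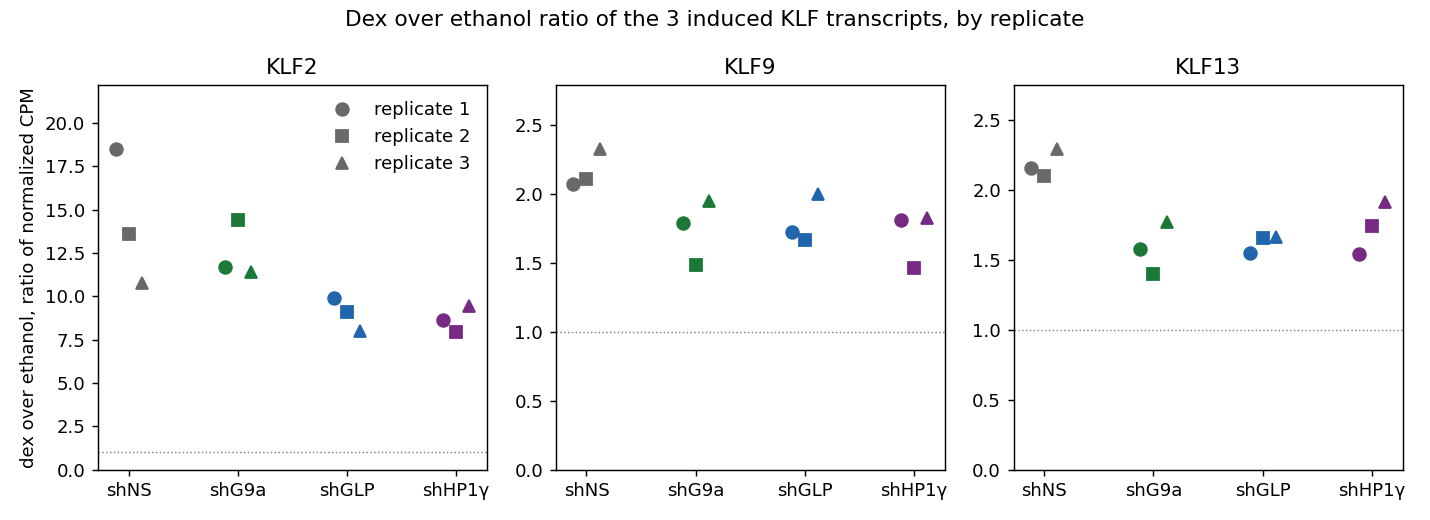
Ratio of normalized CPM in dex over ethanol (vertical axis, from 0) of KLF2, KLF9 and KLF13 for each replicate in each population, with a dotted line at 1. The shNS ratios of KLF9 and KLF13 are all above those of the depleted cells, and the KLF2 ratios of shG9a, at 11.4 to 14.4, overlap those of shNS, at 10.8 to 18.5.

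KLF3, a repressor that acts through CtBP, was lower with dex by less. In shNS it had 96.3, 86.3 and 90.9 normalized CPM in ethanol and 73.9, 75.3 and 68.1 in dex. In shG9a it had 85.6, 85.3 and 76.2 in ethanol and 67.4, 62.7 and 65.8 in dex, and in shGLP it had 77.5, 86.4 and 86.2 and then 71.2, 67.9 and 66.9. In these 3 populations every dex library was below every ethanol library. In shHP1γ it had 99.1, 78.1 and 83.3 in ethanol and 107, 68.8 and 67.7 in dex, where replicate 1 was the highest of all 24 libraries. The log2 fold change in shNS was -0.33 (SE 0.10, adjusted p = 0.0461), and this call was lost under 14 of 18 alternatives, among them TMM scaling (adjusted p = 0.0983), the fit without the replicate block (0.142) and the removal of any one of the 6 libraries (0.0506 to 0.183). It was -0.34 in shG9a (adjusted p = 0.0588), -0.28 in shGLP (adjusted p = 0.177) and -0.11 in shHP1γ (adjusted p = 0.746). KLF3 was called, once both shHP1γ libraries of replicate 1 were left out, in shNS (-0.33, adjusted p = 0.000749), in shG9a (-0.33, adjusted p = 0.00148) and in shGLP (-0.28, adjusted p = 0.00861) and was at -0.25 in shHP1γ (adjusted p = 0.105). For the dex response in shNS, the dex response in shG9a and the dex response in shGLP, 1430, 1037 and 693 of all 10081 transcripts tested were then called. Over the 4 populations the mean was -0.26 (SE 0.05, adjusted p = 0.000549), and it was -0.30 (SE 0.03, adjusted p = 4.61e-07) without both shHP1γ libraries of replicate 1. No depletion changed KLF3 in ethanol or dex past the test, and for shHP1γ in dex the difference from shNS was 0.15 (adjusted p = 0.566) with the pair and -0.07 (adjusted p = 0.718) without it.

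KLF16, a repressor of the SP1-like group, had 230, 255 and 256 normalized CPM in ethanol and 197, 210 and 205 in dex in shNS cells. The other populations had 223 to 293 in ethanol and 202 to 239 in dex, and within each population the dex libraries were below the ethanol libraries. The log2 fold change with dex was -0.27 (SE 0.06, adjusted p = 0.00304) in shNS, -0.20 (SE 0.06, adjusted p = 0.0522) in shG9a, -0.14 (SE 0.06, adjusted p = 0.271) in shGLP, -0.26 (SE 0.06, adjusted p = 0.0134) in shHP1γ and -0.22 (SE 0.03, adjusted p = 6.83e-06) as the mean of all 4. The shHP1γ call was lost under 9 of 18 alternatives, with a value of -0.22 and an adjusted p of 0.0858 without both libraries of replicate 1. The shG9a response passed without that pair, at -0.19 (adjusted p = 0.0287). Against shNS in dex, KLF16 in shHP1γ was at 0.15 (adjusted p = 0.210) with the pair and 0.18 (adjusted p = 0.105) without it. In dex the shGLP libraries, at 220, 239 and 233, were above all shNS libraries, by a log2 difference of 0.18 (SE 0.06, adjusted p = 0.0980).

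KLF7 and KLF10 were at the edge of detection, with 4 to 16 and 5 to 19 counts per library. KLF7, known for its part in neuronal outgrowth, ran from 0.378 to 1.22 normalized CPM and its dex and ethanol groups overlapped in every population. KLF10, the TGF-beta-inducible gene, had 1.30, 1.01 and 0.764 normalized CPM in shNS cells in ethanol and 0.551, 0.687 and 0.565 in dex. These groups did not overlap, but the log2 fold change of -0.76 had an SE of 0.40 (adjusted p = 0.292). In dex, KLF10 in shHP1γ cells differed from shNS by 0.81 (SE 0.39, adjusted p = 0.321) with both replicate 1 libraries and by 1.14 (SE 0.41, adjusted p = 0.122) without them, and KLF7 by -0.37 (SE 0.42) and -0.14 (SE 0.46). No comparison called either gene.

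Across the 7 tested members, 5 were called for the dex response in shNS cells, 3 higher and 2 lower, where 9.95% of all transcripts were called, 4.49% higher and 5.46% lower. Of all calls there, 45.2% were higher, against 56.5% under TMM scaling. With at least a 2-fold rise the members called were KLF2, KLF9 and KLF13, where 1.58% of all transcripts met that rule. In shG9a and shGLP cells 3 members were called in each, all higher, where 6.24% and 3.29% of all transcripts were called and 3.26% and 1.95% were higher. In shHP1γ cells 4 were called, where 3.22% of all were, and these were 3 higher (2.12% of all) and 1 lower (1.09% of all). For the mean over the 4 populations 5 were called beside 23.8% of all, 3 of them higher (10.3%) and 2 lower (13.4%). The dex and ethanol libraries did not overlap for 6, 5, 5 and 4 of the 7 members in shNS, shG9a, shGLP and shHP1γ cells, beside 26.2%, 17.2%, 18.2% and 10.7% of all transcripts. For levels or dex ratios of depleted against shNS cells, the share of all transcripts without overlap is not given here. In dex, 2 members were called in shG9a (KLF2 and KLF13, background 8.8%) and 2 in shGLP (KLF2 and KLF9, background 5.77%), all of them lower, as were 4.43% and 2.46% of all transcripts. None was called in shHP1γ by edgeR, limma or DESeq2 (background 4.09%), with 3 at an unadjusted p under 0.05 (15.6% of all). In ethanol no depletion had a called member by any of these 3 tools (backgrounds 3.73%, 3.61% and 2.91%), with 1 at an unadjusted p under 0.05 in each (15.2%, 13.1% and 14.4% of all). For the differences in dex response edgeR called none (backgrounds 0.0885%, 0.118% and 0.0197%, and 0.177% for the mean), with 2 members, KLF9 and KLF13, at an unadjusted p under 0.05 in each (6.75%, 3.89%, 3.81% and 5.02% of all). DESeq2 called 1 member for shG9a and 1 for the mean, and limma called none. Without both shHP1γ libraries of replicate 1, the members called in dex were 3 in shG9a, 3 in shGLP and 1 in shHP1γ (backgrounds 13.6%, 8.59% and 6.1%), and in ethanol 1 in each (6.51%, 5.73% and 3.46%). For the differences in dex response they were then 1, 1 and 0 (0.268%, 0.188% and 0.0198%), and 1 for the mean (0.556%).

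**Figure D4:**
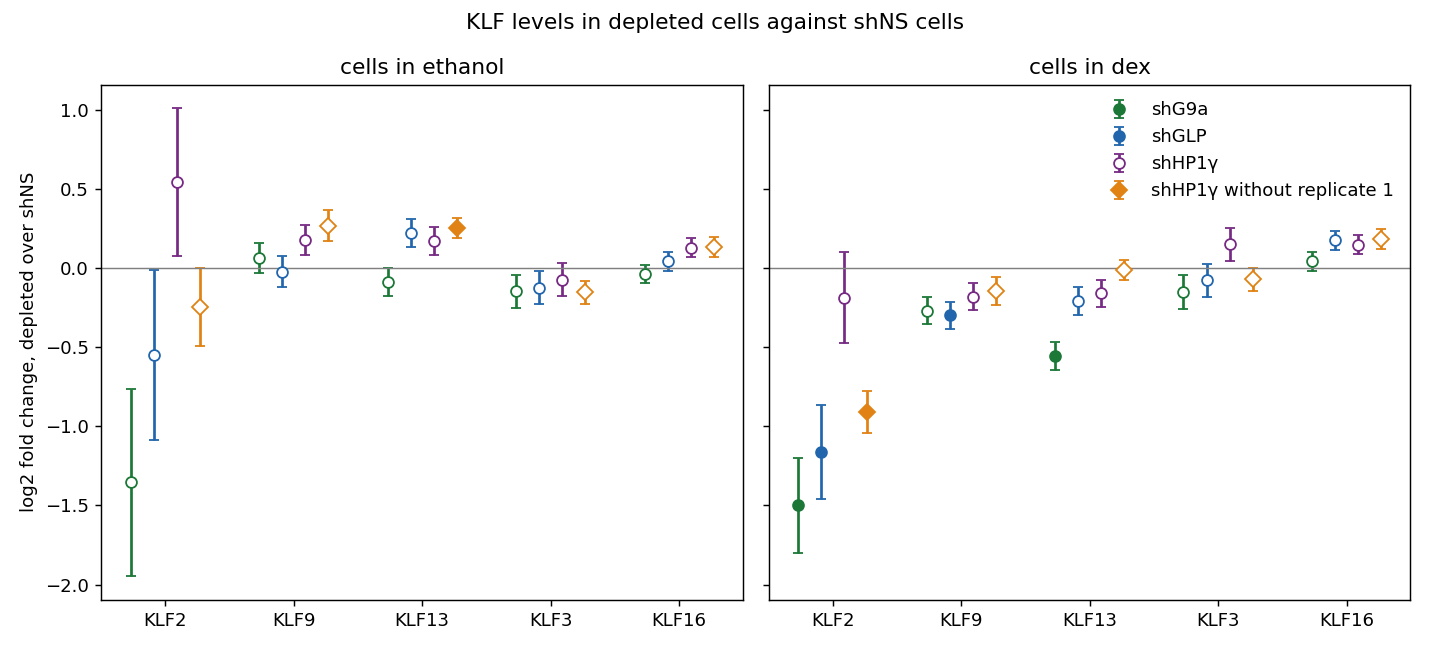
Log2 fold change of depleted over shNS cells (vertical axis) for the 5 well-counted KLF transcripts in ethanol (left) and dex (right), with bars of 1 standard error, filled symbols for an adjusted p of at most 0.05, and diamonds for shHP1γ without its replicate 1 libraries. KLF2 lies lowest in dex, at -1.50 in shG9a and -1.16 in shGLP, and its shHP1γ value goes from -0.19 to -0.91 without replicate 1.

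Per kilobase of the canonical transcript, the order of levels in shNS cells changed with dex. In ethanol it ran from KLF16 at 85.1 ± 5.06 CPM per kb (SD, n = 3) through KLF13 at 48.6 ± 1.49, KLF3 at 16.3 ± 0.89, KLF9 at 4.72 ± 0.34 and KLF2 at 1.09 ± 0.29 to KLF10 at 0.352 and KLF7 at 0.111. The libraries of neighbours in this order did not overlap. In dex KLF13 came first at 106 ± 6.09, before KLF16 at 70.3 ± 2.26, and KLF2 at 14.8 ± 1.00 passed both KLF3 at 13.0 ± 0.68 and KLF9 at 10.2 ± 0.30. KLF2 and KLF3 were close there, at 14.2 to 16.0 and 12.2 to 13.5. These levels assume that the reads of each gene come from the canonical transcript.

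Over the 24 libraries the normalized CPM of KLF2, KLF9 and KLF13 varied together on the log2 scale, with Pearson correlations of 0.911 between KLF2 and KLF9, 0.888 between KLF2 and KLF13 and 0.928 between KLF9 and KLF13. The libraries share the dex treatment, so these values describe the design as much as the genes. Among 5605 transcripts, those closest to KLF2 were TSC22D3 (0.973), which encodes the glucocorticoid-induced leucine zipper, TAPT1 (0.970) and CHST7 (0.965). Closest to KLF9 were PREX1 (0.983), CLN8 (0.963) and MCAM (0.960), and closest to KLF13 were FAM53B (0.980), LOC101928841 (0.975) and METTL7A (0.972). For KLF16 they were SET (0.914), SOX12 (0.895) and LRFN4 (0.890). For KLF3 the 3 closest, TTTY15 (0.841), RELB (0.841) and PRKCE (0.821), had lower values.

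Textbook targets of the receptor set the scale for the induced members. In shNS cells 5 of 6 tested transcripts of this list rose, where 4.49% of all transcripts did, and 3 of these 5 belong to TSC22D3. TSC22D3 (NM_004089) rose by 3.47 on the log2 scale, FKBP5, a chaperone that restrains the receptor, by 1.75, and PER1, a clock gene, by 1.25. DUSP1, a MAP kinase phosphatase, was at -0.06 (adjusted p = 0.817), and ZBTB16 was listed at 0 counts. Beside them stand 3.78 for KLF2, 1.11 for KLF9 and 1.12 for KLF13, and these differences between genes were not tested. In dex, the log2 difference of TSC22D3 (NM_004089) from shNS was -0.97 in shG9a and -0.83 in shGLP and that of PER1 was -0.61 and -0.42, all called, beside -1.50 and -1.16 for KLF2. The other 2 tested transcripts of TSC22D3 were not called in either, FKBP5 was not called at -0.35 (adjusted p = 0.118) and -0.40 (adjusted p = 0.110), and DUSP1 was at 0.01 in shG9a and was called higher in shGLP at 0.33 (adjusted p = 0.0403). The paper, with a different correction for batch effects, lists TSC22D3, PER1 and FKBP5 among the dex-regulated genes that depend on G9a, GLP and HP1γ. The difference in dex response of PER1 in shG9a was -0.72 (adjusted p = 0.00345), beside -0.47 for KLF13 (adjusted p = 0.383). In ethanol the TSC22D3 transcript called in dex had 8.05 ± 0.90 normalized CPM in shNS cells (SD, n = 3). It had 3.11 ± 0.86 in shG9a and 5.44 ± 2.01 in shGLP cells there. KLF2 in shG9a was at -1.35 from shNS in ethanol, which was not called, so lower levels of both were not confined to dex.

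The other genes of the family and its partners were tested where counts allowed. Of 18 other KLF and SP genes 6 were tested, and none was called in any comparison by edgeR. KLF12 and SP2 were well counted, and SP2 was near the limit with dex in shNS cells, at -0.19 (adjusted p = 0.05135). KLF5, KLF8, KLF15 and SP3 had at most 28, 18, 36 and 63 counts on any accession, where small changes could go uncalled. For the dex response in shNS cells the median log2 fold change of the 6 was -0.14, beside -0.03 over all transcripts. Of 12 cofactor genes 10 were tested through 12 transcripts, and 1 rose with dex in shNS cells, SAP30, a subunit of the SIN3 complex, by 0.62 (SE 0.10, adjusted p = 9.37e-05). For the mean dex response 4 of the 12 were called, where 23.8% of all transcripts were. Of these 3 rose, SIN3B (NM_001297597) by 0.36, SAP30 by 0.28 and the acetyltransferase KAT2B by 0.14, and 1, WWP1, a ubiquitin ligase that acts on KLF2, fell by 0.10. The other tested SIN3B transcript (NM_015260) was at 0.28 (adjusted p = 0.343). Among the tested cofactors, FHL3, CTBP2 and CREBBP had at most 16, 29 and 30 counts on any accession. KAT2B was lower than in shNS in dex in shG9a, at -0.27 (adjusted p = 0.0111), and in shHP1γ cells, at -0.39 (adjusted p = 0.000589). In ethanol too it was called lower in shHP1γ, at -0.36 (adjusted p = 0.00283), and was at -0.21 in shG9a (adjusted p = 0.0764). SAP30 was called higher in shG9a in ethanol, at 0.38 (adjusted p = 0.0294).

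Of 7 genes known to drive KLF2, 4 were tested through 5 transcripts, with at most 24 and 35 counts on any accession of MEF2A and FOXO3. One MEF2D transcript (NM_005920) was lower for the mean dex response, at -0.18 (adjusted p = 0.0491), while the other (NM_001271629) was at 0.00 (adjusted p = 0.992), and FOXO1 was lower in dex in shG9a cells, at -0.29 (adjusted p = 0.0158), and no other comparison called any of them. Of the trafficking genes that KLF2 is known to activate, S1PR1 and CCR7 had at most 3 counts in any library, and the integrin ITGB7, at most 33 counts, had a log2 fold change of 0.48 (SE 0.32, adjusted p = 0.451) with dex in shNS cells. Of 7 TGF-beta pathway genes 3 were tested, SMAD2, SMAD3 and SMAD4, and none was called in any comparison. SMAD3 and SMAD2 had at most 13 and 72 counts on any accession.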

How the data were processed

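The authors sequenced paired-end libraries, aligned reads to hg19 with HISAT2 and counted them per RefSeq accession, and the deposited table holds raw counts. A second deposited table of fold changes and FDR from their own comparisons was read only for gene symbols. Symbols not given there came from RefSeq, and 774 accessions stayed unnamed. How reads shared by accessions were counted is not given in the sources used here.

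Counts were tested with edgeR 4.0.16 (R 4.3.3): accessions over 1 CPM in at least 2 libraries, upper quartile scaling, then glmQLFit and glmQLFTest in a single fit of the 8 groups (24 libraries), blocked on replicate number, and Benjamini-Hochberg adjustment over all 10167 accessions. limma 3.58.1 on log2(CPM + 0.5) and DESeq2 1.42.0 served as alternatives. The script was checked on simulated counts. The labels place the replicates of a condition on different days but do not say that a number marks a shared day, and 61 of 84 same-number pairs had deviations correlated over 0.1 (0.005 to 0.588, median 0.169). No pair of replicates agreed within sampling noise (chi-square per degree of freedom 3.36 to 39.1). Lengths, overlaps and palindromes came from GENCODE and the GRCh37 genome. The named genes were all accessions of the 9 members, the depleted genes, 5 textbook receptor targets and at most 3 called transcripts of each other list. WWP1 and the uncalled genes named from other lists were added after their values were seen. The members and lists were chosen with earlier results of these data known. The contrast of the mean depleted response and the fits without both shHP1γ libraries of replicate 1 were added after seeing the data. Some listed genes are not reported here.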

Additional observations from a re-analysis of the deposited data

Results flagged for a closer look

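KLF13 in shGLP cells lay above shNS in ethanol and below it in dex in each replicate. The ratio of shGLP over shNS was 1.18, 1.15 and 1.16 in the ethanol replicates and 0.848, 0.910 and 0.844 in the dex replicates. Neither difference was called in the edgeR fit of all 24 libraries (adjusted p = 0.228 in ethanol and 0.204 in dex). The difference of the log2 dex response from shNS was -0.43 (SE 0.12, unadjusted p = 0.00206, adjusted p = 0.530), so it did not pass the edgeR test over all transcripts. In KLF10, shHP1γ over shNS was 0.711, 0.979 and 0.816 in ethanol and 1.12, 1.98 and 2.16 in dex, a difference of 1.10 (SE 0.55, adjusted p = 1) at 5 to 19 counts per library, which did not pass either. It was 1.41 (SE 0.58) without both shHP1γ libraries of replicate 1.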

How the results depend on the processing

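The rise of KLF2, KLF9 and KLF13 with dex in all 4 populations and the lower KLF13 of shG9a cells in dex kept direction and call under all alternatives run. The member counts moved in other comparisons. Without the replicate block, which pairs libraries by replicate number only, shGLP in dex had 0 called members in place of 2, and the block changed the call of KLF3 in shNS too. With no filter on low counts the count was 1 for shGLP in dex, shG9a in ethanol, and the differences of dex response of shG9a and of the mean. limma gave 0 for shGLP in dex. DESeq2 gave 5 for the dex response of shG9a and 1 for shGLP in dex and for the differences of shG9a and of the mean. Fitting only the groups compared gave 4 for shGLP in dex and 1 for shG9a and shGLP in ethanol and for the difference of shGLP. Without both shHP1γ libraries of replicate 1 the count was 5 for the dex response of shG9a and 1 for shHP1γ in dex, for each depletion in ethanol, and for the differences of shG9a, shGLP and the mean. Leaving out replicates or single libraries gave 3 to 5 for the dex response of shNS, 1 to 2 for shG9a in dex, 0 to 1 for shGLP in dex, 0 to 1 for shHP1γ in dex, shG9a in ethanol and the mean difference. KLF2 in shHP1γ against shNS in dex ran from -0.96 without replicate 1 to 0.18 without replicate 2. It turned positive there and at 0.13 without replicate 3, and 0.14 and 0.05 without the shHP1γ dex library of replicate 2 or 3. The number of all transcripts called for dex in shNS, 1012, ran from 309 without replicate 3 to 2186 with only the groups compared. The cause was not tested. KLF7 and KLF10 had only 4 to 19 counts per library.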
